A study of Homo sapiens with 2 samples.

Results

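The genes described here encode the AP-1 transcription factor and other products of the immediate early response. The members are JUN, JUNB, JUND, FOS, FOSL1, FOSL2, EGR1, IER2, IER5 and ATF3, 10 genes whose sites were found by gene symbol alone. All listed sites carrying 1 of these names were kept. The 2 lists of the series held 142 such sites among 72449 in replicate 1 and 141 among 81554 in replicate 2, and 128 of the 60462 sites listed in both. FOSL1 was not listed in either replicate, so 9 genes carry the results. The series measured N6-methyladenosine (m6A) in poly(A) RNA of wild-type HEK293T cells, a human embryonic kidney line, with GLORI. The chemistry deaminates adenosine to inosine, read as G, and leaves m6A to be read as A, so the share of A among A and G reads at a position is its methylation level. Both libraries were made from 100 to 200 ng of mRNA of cells labelled day 0, and it was the mRNA that was GLORI-treated. There was no second genotype, stimulus or untreated library. The label gives a single cell line, and the lists hold no expression levels with which to check it. No serum or growth factor stimulus is named, so the values describe these transcripts without a named stimulus.

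AP-1 is a dimer of basic leucine zipper proteins. Jun proteins pair with each other, with Fos proteins or with ATF proteins, and the pair that forms sets which DNA elements are bound and how strongly they activate transcription. Immediate early genes are transcribed within minutes of a growth factor or stress signal without new protein synthesis, and their mRNAs are typically short-lived. m6A is placed by the METTL3 and METTL14 complex, mostly in the sequence context DRACH, and is read by YTH-domain proteins, of which the cytoplasmic ones are known to speed the decay of methylated mRNA.

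The lists contain only called sites: no site had fewer than 15 reads, fewer than 5 A reads or a level under 10%. An unlisted position therefore gives no bound on a level. The median listed site was covered by 40 reads in replicate 1 and by 42 in replicate 2. Whether separate cultures were used is not stated in the labels. Over all shared sites, replicate levels were within sampling noise of each other (mean chi-square 0.931), and the libraries are treated as a single sample, with each library's value or their mean and no SD. Standard errors of gene means and the 95% Wilson intervals of single sites, on the summed counts, cover counting error only.

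Most of these transcripts carried many methylated positions. Of the 9 listed genes, 8 had more shared sites than the median named gene of the series, and the median over the 9 was 14 sites against 4 over 9521 genes. JUN had 33 shared sites and IER5 had 19. ATF3 had 18, IER2 16, JUND 14 and JUNB 12. FOSL2 had 8 and FOS 7, and EGR1 was the exception with 1. Gene coverage, as the authors list it, differed widely among them, from 11.7 in EGR1 to 485 in JUN in replicate 1. Beside genes within 1.5 times the same coverage, 8 of 9 again had more sites than the median. JUN had more sites than 99.0% of 193 such genes (median 2), ATF3 than 94.3% (median 3), JUND than 94.0% (median 3) and IER5 than 92.7% (median 4). FOSL2, at a coverage of 12.05 in replicate 1, had more sites than 89.3% of such genes (median 2). FOS lay closer to the middle, above 63.0% (median 4). The single gene nearest to JUN in coverage, CDT1, had 8 shared sites; RFLNB, nearest to JUNB, had 7, and LARGE2, nearest to IER5, had 1. Per kb of annotated gene, JUN had 10.1 sites, JUND 7.26, JUNB 6.56, IER5 4.52, IER2 3.55 and FOS 2.06. ATF3 and FOSL2, with long introns, had 0.325 and 0.327, and EGR1 had 0.261. The 985 genes with a span of 1500 to 5000 bases had a median of 1.02, and JUN exceeded 99.6% of them. These spans include introns where a gene has any, as in FOS.

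**Figure D1:**
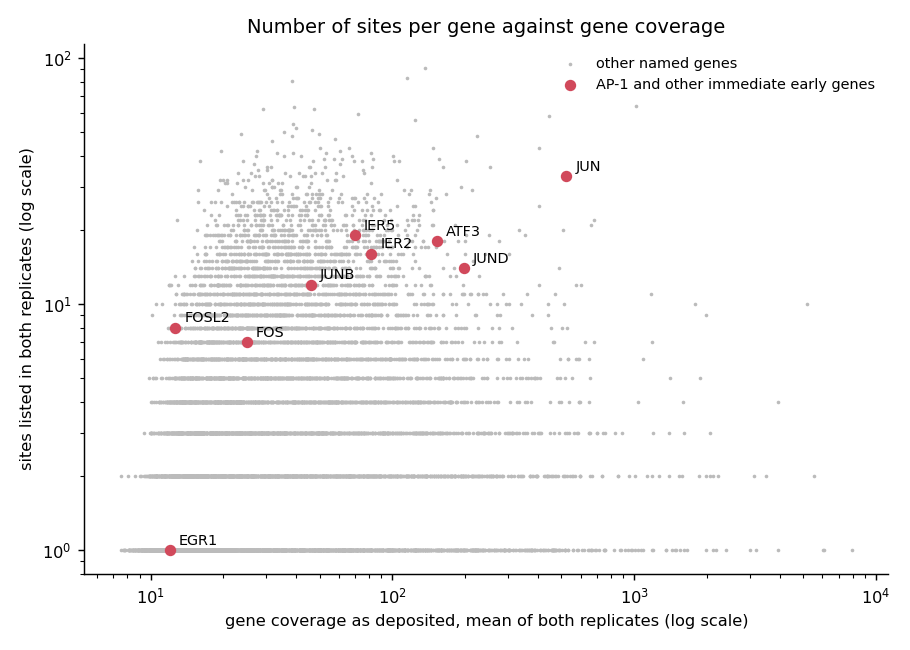
Sites listed in both replicates (y axis, log scale) against the deposited gene coverage, averaged over both replicates (x axis, log scale), for 9521 named genes in grey and the 9 listed genes in red. JUN, with 33 sites, lies at high coverage above most genes of like depth, FOSL2 reaches 8 sites at low coverage, and EGR1 sits at the bottom with 1.

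The levels of the 128 shared sites covered nearly the whole measurable range, from 10.5% to 98.7%. Their median was 44.8%, with quartiles at 23.4% and 75.1%, beside a median of 44.6% over all shared sites. At 28 sites (21.9%) the level was at least 80%, against 19.8% of all shared sites. At 25 sites (19.5%) it was under 20%, against 15.2%. The median and the share of very high sites were thus near those of the series.

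Among the gene means, JUNB was highest at 69.2% ± 1.2 (counting SE), followed by EGR1 at 65.0% ± 8.4 from a single site, IER5 at 62.7% ± 0.84 and IER2 at 59.4% ± 0.81. FOSL2 had 53.3% ± 2.3, FOS 49.3% ± 2.1, JUN 40.9% ± 0.29, JUND 40.9% ± 0.58 and ATF3 33.3% ± 0.83. JUNB and EGR1, EGR1 and IER5, FOSL2 and FOS, and JUN and JUND differed by at most 1.27 times their combined counting error and have no settled order. The step from IER5 to IER2 was 2.90 times that error, from IER2 to FOSL2 2.49 times, from FOS to JUN 3.92 times and from JUND to ATF3 7.55 times. A mean over listed sites depends on which sites can be listed. The lowest level that 5 A reads allow, at a gene's median site coverage in replicate 1, was 33.3% in EGR1. It was 22.2% in FOSL2 and 16.1% in FOS. In the other genes 5 A reads would allow the 10% limit. How far the deposited adjusted p also limits listing was not computed, so their true limit may be higher. The lowest level listed in either replicate was 17.8% in JUNB, 13.5% in IER2 and 12.4% in IER5. JUN had 12 shared sites under 20%, ATF3 6 and JUND 5. JUNB, IER2 and IER5 had 0 shared sites there, though each had sites under 20% listed in a single replicate, such as the 17.8% of JUNB position 12791995. With sites of at least 20% in both replicates alone, the mean of JUN was 58.3%, that of JUND 54.7% and that of ATF3 42.1%. FOSL2 then had 58.3% and FOS 55.1%, so the step from FOS to JUN was not kept. IER5 and IER2 had 62.7% and 61.9% at that limit. Over all sites listed in replicate 1, IER5 and IER2 had 55.6% and 55.4%. Over all sites listed in replicate 2 they had 59.99% and 56.4%, so with these sets of sites only replicate 2 kept the step. On the shared sites alone they had 63.5% and 59.9% in replicate 1 and 61.9% and 58.8% in replicate 2.

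Of the Jun family, JUN (chromosome 1, 58780791 to 58784047, minus strand, GRCh38), the founding subunit of AP-1 and a gene without introns, was the most deeply read, its shared sites being covered by 75 to 1568 reads in replicate 1 and by 64 to 1910 in replicate 2. Its highest sites were almost fully methylated in both libraries. Position 58781894, 2154 nt from the annotated start, had 756 A reads of 763 in replicate 1 and 931 of 947 in replicate 2, or 99.1% and 98.3%. Position 58783078 had 97.5% in both replicates, position 58781797 had 97.3% and 97.4%, and position 58783190 had 97.0% and 96.0%. These 4 sites were the only ones in JUN at 80% or more, and in each the 2 libraries lay within 1 percentage point of each other. The most covered shared site, position 58782999, had a low level, with 179 A reads of 1566 in replicate 1 and 228 of 1910 in replicate 2 (11.4% and 11.9%, interval 10.7 to 12.8). The lowest, position 58783332, had 10.2% and 10.9%. Sites with low levels were not spread evenly along JUN. With the annotated gene divided into 3 equal parts, the 5′ part held 16 shared sites with a median of 18.9%, 9 of them under 20%. The middle part held 13 with a median of 40.9% and the 3′ part 4 with a median of 71.6%, none of them under 46.4%. Very high sites occurred in every part, the highest level being 97.5% in the 5′ part, 98.7% in the middle part and 97.3% in the 3′ part. The last shared site lay 800 nt before the annotated end.

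The shared site of JUN nearest to its start is printed first below, since it lies close enough to the annotated first base for its surroundings to be read from RefSeq's promoter sequences (GRCh38.p14). It is position 58784043, the fifth base of the annotated transcript. Of the other members only IER2 had a site inside a promoter window, its shared site nearest to the start, which falls in the window of the neighbouring gene STX10 on the opposite strand and is printed here in the direction of IER2. Capitals mark the called base with the 2 bases on either side of it, and both sequences run 5′ to 3′ along the mRNA.
JUN, chr1:58784033-58784053, minus strand: ataagggcTCAGAgttgcact
IER2, chr19:13150499-13150519, plus strand: agttcctcGGATTgttcctgc

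In both, the central capital is the called A. In neither is it followed by C, so neither matches DRACH, in which A, G or T comes first, then A or G, then the methylated A, then C, and last A, C or T. Both sites had low levels. The JUN site had 13 A reads of 93 in replicate 1 and 12 of 81 in replicate 2 (13.98% and 14.8%, interval 9.93 to 20.3). The IER2 site, position 13150509, had 19.1% of 94 reads and 23.4% of 111 (interval 16.4 to 27.6). By the conversion deposited for each gene, the unconverted share was 5.03% in JUN and 6.20% in IER2. The mean level was 2.86 times that share at the JUN site and 3.43 times at the IER2 site. How much of either level is m6A and how much incomplete chemistry was not tested. Over the whole series, 1353 shared sites lay in a promoter window, which reaches from 250 bases before an annotated start to 50 after it. Of the 449 in the first 5 bases of a transcript, 15 matched DRACH (3.34%), as did 569 of the remaining 904 (62.9%). Among all adenosines in the first 50 bases after a start, on the transcript's strand, 7.54% sit in that motif. The base at all 2600 sites in these windows, those listed in 1 replicate included, was A on the called strand. The other members' sites lay outside the windows, and their sequences were not analysed here.

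**Figure D2:**
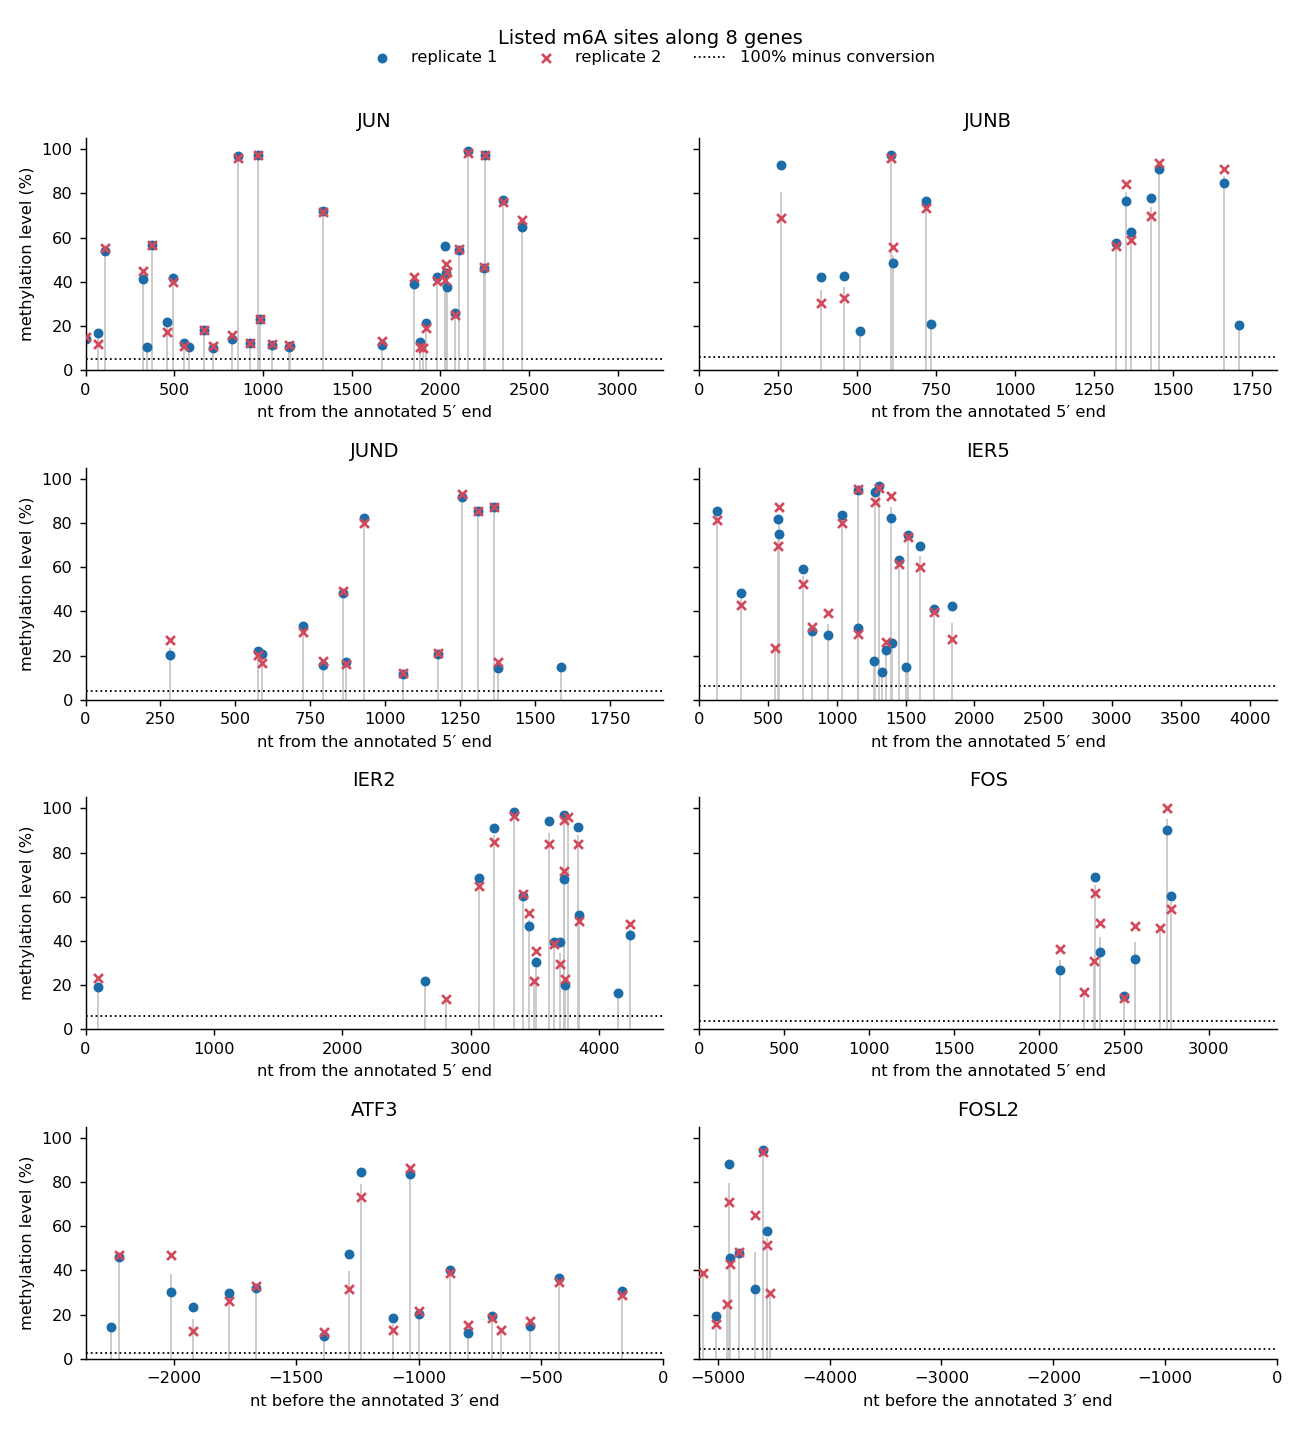
Methylation level of every listed site (y axis, percent) along 8 genes, by distance in nt from the annotated 5′ end, or before the 3′ end for ATF3 and FOSL2. Blue points are replicate 1, red crosses replicate 2, grey stems run up to the mean level, and the dotted line is 100% minus the gene's deposited conversion; the sites of ATF3 and FOSL2 farthest from the 3′ end are outside the panels. JUN has a few sites near 97%, many close to the 10% limit and many between them. The sites of IER5 end 2363 nt before the annotated 3′ end, and those of FOS begin 2124 nt from the start.

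JUNB (chromosome 19, 12791486 to 12793315, plus strand), a Jun protein that activates more weakly than JUN and can oppose it, had the highest mean level of the listed genes with more than 1 site. It had no shared site under 36.2%, but replicate 1 alone listed 3 further sites, at 17.8% to 20.9%. Over all sites listed in replicate 1 its mean was 60.6%. Its most methylated site, position 12792092, had 39 A reads of 40 in replicate 1 and 49 of 51 in replicate 2 (97.5% and 96.1%). Position 12792941 had 91.0% and 93.8%, and position 12793145, the last shared site, had 84.7% and 91.1%. The most covered site, position 12792837, had 76.7% of 103 reads and 84.2% of 114. The lowest, position 12791870, had 42.1% and 30.3%. Between positions 12792202 and 12792803, a stretch of 601 nt in a gene of 1830, no shared site was listed. Among genes of like coverage JUNB had a higher mean than 96.3%, the largest such share of the 9 genes.

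JUND (chromosome 19, 18279694 to 18281622, minus strand), the Jun protein that is present in most resting cells and is the least inducible of the family, was split between high and low sites. The 4 sites at 80% or more were position 18280365 (91.8% and 93.1%), position 18280261 (87.3% and 87.4%), position 18280313 (85.6% and 85.3%) and position 18280694 (82.3% and 79.9%). Of the other 10 sites, 8 lay under 25%, position 18280898 had 33.3% and 30.6%, and position 18280763 had 48.3% and 49.2%. This gave a median of 22.3% beside a mean of 40.9%. The most covered site, position 18280831, had 68 A reads of 430 and 94 of 539, or 15.8% and 17.4%. The lowest, position 18280565, had 11.6% and 11.97%. The shared sites of JUND under 25% all had 89 reads or more in replicate 1.

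The Fos family was sparsely covered. FOS (chromosome 14, 75278828 to 75282230, plus strand), the classic Fos partner of JUN and itself a short-lived immediate early product, had 7 shared sites, covered by only 16 to 47 reads in replicate 1 and by 29 to 57 in replicate 2. Its highest site, position 75281580, showed A in 28 of 31 reads and in 30 of 30 (90.3% and 100%, interval 86.5 to 98.3). Position 75281159 had 68.8% and 61.8%, and position 75281602, the last, had 60.5% and 54.5%. The lowest and most covered site, position 75281327, had 14.9% of 47 reads and 14.04% of 57. All 7 sites lay between 2124 and 2775 nt from the annotated start of a gene of 3403 nt. Replicate 2 listed 3 further FOS sites, at 16.7% to 45.8%, that replicate 1 did not.

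FOSL2 (chromosome 2, 28392858 to 28417317, plus strand), the Fos-related antigen FRA2, had 8 shared sites. Of these, 7 lay within 460 nt of each other, between positions 28412303 and 28412762, at least 4555 nt before the annotated 3′ end; the other, position 28393258, lay 401 nt from the start. The highest, position 28412723, had 17 A reads of 18 and 15 of 16 (94.4% and 93.8%). The most covered and lowest, position 28412303, had 19.4% of 36 reads and 15.9% of 44. FOSL1, which encodes FRA1, had no entry and its level is not bounded by these lists.

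ATF3 (chromosome 1, 212565407 to 212620777, plus strand), a stress-induced basic leucine zipper protein that pairs with Jun proteins, had the lowest mean. A single site reached 80%. This was position 212619743, which was also the most covered, with 430 A reads of 513 in replicate 1 and 509 of 590 in replicate 2 (83.8% and 86.3%, interval 82.9 to 87.1). Next came position 212619541 with 84.4% of 32 reads and 73.5% of 49. The remaining 16 sites lay under 47%, among them the lowest, position 212619390, with 10.3% and 12.1%. Position 212619777, only 34 nt after the highest site and covered by 495 and 522 reads, had 20.4% and 21.6%. Of the 18 sites, 17 lay in the last 2223 nt of a gene spanning 55371, and the last was 168 nt from its 3′ end. The exception, position 212608761, had 37.0% of 46 reads and 22.5% of 40.

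Of the immediate early genes outside AP-1, IER5 (chromosome 1, 181088700 to 181092900, plus strand), a nuclear protein linked to heat shock factor activity, had the most sites at 80% or more, 7 of 19. The highest, position 181090003, showed A in 96 of 99 reads and in 120 of 125 (97.0% and 96.0%). Position 181089849 had 94.9% and 95.2%, and position 181089976 had 93.9% and 89.3%. The most covered, position 181090408, had 41.1% of 202 reads and 39.6% of 250, and the lowest, position 181090059, had 22.6% and 26.1%. High sites of IER5 were found from close to its 5′ end, where position 181088825, 126 nt from the start, had 85.4% of 198 reads and 81.5% of 238. The 5′ part of 3 equal parts held 14 sites with a median of 78.3%, and the middle part 5 with a median of 62.3%. The 3′ part held none, and the last shared site lay 2363 nt before the annotated end. The 5′ part of JUN, by comparison, had 9 shared sites under 20%, whereas that of IER5 had 0. In that part of IER5, replicate 1 alone listed position 181089966 (17.4% of 69 reads) and position 181090027 (12.4% of 161). The median coverage of shared sites in replicate 1 was 753 reads in JUN and 81 in IER5.

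IER2 (chromosome 19, 13150411 to 13154911, plus strand), a nuclear protein induced by growth factors, had 15 of its 16 shared sites between 3066 and 4241 nt from the start. The highest and most covered was position 13153746, with 160 A reads of 163 and 177 of 183 (98.2% and 96.7%, interval 95.1 to 98.6). Position 13154133 had 97.1% and 94.5%, position 13154018 had 94.1% and 83.7%, position 13153588 had 90.9% and 85.0%, and position 13154243 had 91.8% and 84.0%. The lowest of all was the 5′ site printed above. EGR1 (chromosome 5, 138465479 to 138469303, plus strand), a zinc finger transcription factor and a standard marker of growth factor signalling, had 1 site, position 138465850. It had 12 A reads of 15 and 9 of 18, or 80% and 50%, with an interval of 46.6 to 77.8.

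Replicates were compared next, site by site. Of the members, 90.1% of the replicate 1 sites (interval 84.1 to 94.0) were also in replicate 2, against 83.5% over all genes, and 90.8% of the replicate 2 sites (84.9 to 94.5) were in replicate 1, against 74.1%. Coverage differs between the members and the series, and its part in this was not tested. The median difference in level was 2.75 percentage points, and 86 of 128 sites were within 5 points. Where both libraries reached 200 reads (39 sites) it was 1.49 points, with a largest difference of 5.55. Fisher's exact test, two-sided, called 0 of the 128 sites after Benjamini-Hochberg adjustment over all 60462 shared sites (adjusted p = 1 at each), against 0% called over all shared sites, as did a chi-square test. By Fisher's exact test 3 sites (2.34%) had an unadjusted p under 0.05, against 3.06% of all shared sites, and by the chi-square test 5 sites had, against 4.28%. Those 3, with their unadjusted p by Fisher's exact test, were JUNB position 12791743 (92.9% of 28 reads and 68.8% of 32, p = 0.0253), FOSL2 position 28412647 (31.8% of 22 reads and 65.2% of 23, p = 0.0377) and ATF3 position 212619493 (47.4% of 76 reads and 31.7% of 104, p = 0.0434). The largest difference of all, 33.4 points, was that of the FOSL2 site.

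**Figure D3:**
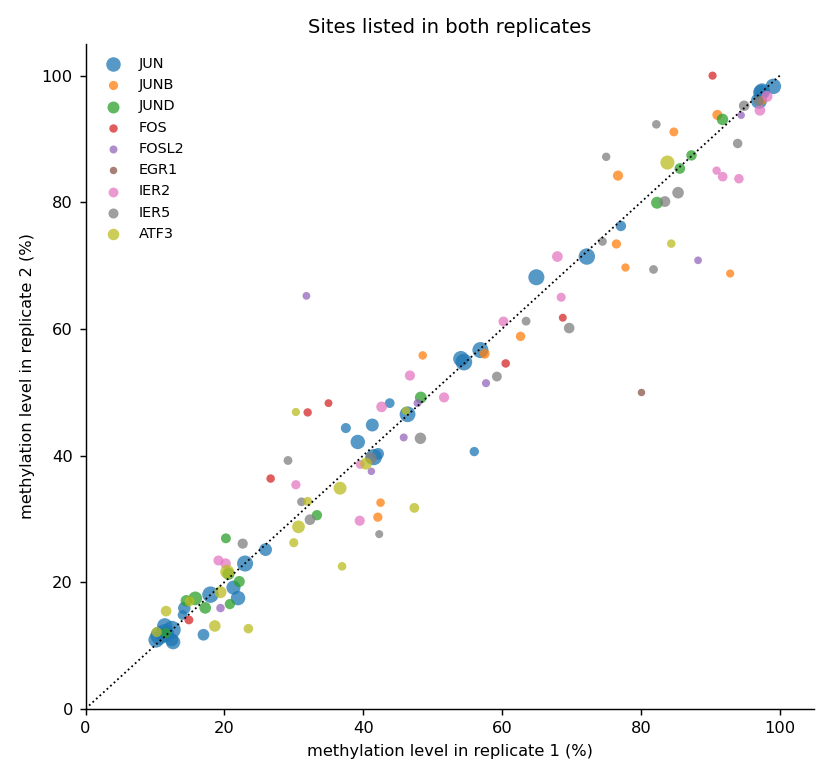
Methylation level in replicate 2 (y axis, percent) against replicate 1 (x axis, percent) for the 128 sites listed in both; each point is a site, coloured by gene, larger with more reads, and the dotted line marks equal levels. Deeply read JUN sites lie on the line, and the points farthest from it are sparsely read sites of FOSL2, EGR1 and JUNB.

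Sites listed in a single replicate numbered 27. The 14 found only in replicate 1 had levels of 10.6% to 25.7% (median 15.6%) and 35 to 1694 reads. The deepest of them, JUN position 58782895, had 11.04% of 1694 reads, just above the 10% limit. Of the 13 found only in replicate 2, 12 had 10.2% to 45.8% (median 22.6%) and 18 to 384 reads. The deepest was JUN position 58782144, with 10.2% of 384 reads. The other, position 13154165 in IER2, had 96 A reads of 100. Over all genes 0.102% of the replicate 2 sites with at least 80% and 50 reads were not listed in replicate 1, and 0.0534% of those with at least 100 reads. In the other direction the share was 0.149% at 50 reads, and 0 of these sites were in the members. The most covered site listed in 1 replicate was position 181090027 in IER5 (12.4% of 161 reads), position 212620115 in ATF3 (13.3% of 83), position 12791995 in JUNB (17.8% of 73), position 13153220 in IER2 (13.5% of 111), position 75281093 in FOS (16.7% of 48) and position 28412787 in FOSL2 (29.6% of 27). In JUND the only such site was position 18280036, with 14.6% of 48 reads.

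Neighbouring adenosines of the same mRNA could differ sharply. There were 11 pairs of adjacent shared sites at most 12 nt apart, and in 9 of them the 95% intervals of the levels did not overlap. Whether intervals overlap depends on read depth, and the share without overlap among all such pairs of the series was not computed. In IER2, 3 sites stood at steps of 6 nt. Position 13154133 had 95.8% (interval 92.8 to 97.6), position 13154139 had 69.7% (64.4 to 74.9) and position 13154145 had 21.6% (17.3 to 27.1), each over 271 to 289 summed reads, so that the level fell along 12 nt in both libraries. In IER5, position 181089849 had 95.05% and position 181089855, 6 nt on, had 31.1%. In JUN, position 58783078 had 97.5% and position 58783067, 11 nt towards the 3′ end, had 22.96%. The opposite order held at positions 58781804 and 58781797 of JUN, 7 nt apart, with 46.4% followed by 97.3%. JUNB had 96.8% and 52.2% at 5 nt, JUND 48.7% and 16.6% at 11 nt, FOSL2 79.5% and 44.3% at 9 nt and IER2 87.9% and 50.4% at 12 nt. The pairs whose intervals overlapped were both in JUN, where positions 58782021, 58782017 and 58782009 had 48.3%, 46.0% and 40.9%. The median difference within the 11 pairs was 37.5 points, beside 23.7 points for 4254 such pairs over all named genes. Sites this close share most of their reads, and the pairs were not tested against each other.

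**Figure D4:**
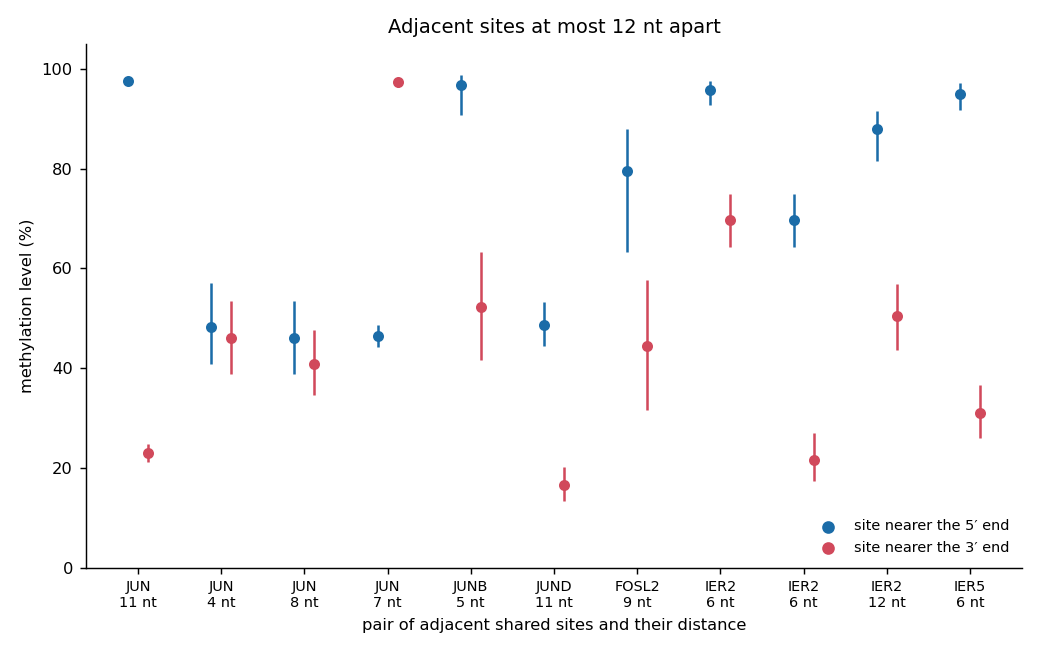
Methylation level (y axis, percent) of the 11 pairs of adjacent shared sites at most 12 nt apart, labelled with gene and distance. Points are means of both replicates and bars are 95% Wilson intervals on the summed counts. Blue is the site nearer the 5′ end and red the one nearer the 3′ end. In 8 of the 9 pairs whose bars are apart, the site nearer the 5′ end is the higher. Some of these pairs share a site, and how often this order holds over all such pairs of the series was not computed.

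The conversion deposited for each gene, how it was computed being unstated, was below the median gene's 97.6% in all 9 genes. It was lowest in JUNB (93.7% in replicate 1 and 94.1% in replicate 2), IER2 (93.9% and 93.7%) and IER5 (93.9% and 94.0%), followed by JUN (94.97% and 94.98%). Only 1.41% of named genes had a lower value than IER2, 1.59% than JUNB, 1.69% than IER5 and 4.27% than JUN. ATF3, with 97.3% in both, was closest to the median. The remainder to 100% was 6.20% in IER2 and 2.71% in ATF3, and how much of it is m6A and how much incomplete chemistry was not tested. JUNB, IER5 and IER2, with the lowest conversion, also had the highest means of the genes with more than 1 site. Treating all of that remainder as background, by subtracting it and rescaling, left JUNB at 67.2%, IER5 at 60.3%, IER2 at 56.7%, JUN at 37.8% and ATF3 at 31.4%, in the same order, while JUN and JUND, at 37.8% and 38.5%, changed places. In JUN 10 shared sites lay under 3 times its remainder of 5.03%, the lowest at 2.10 times. No other listed member had such a site, and 0.321% of all shared sites (194) fell under that mark. Of the JUN sites under it, most lay in the 5′ part of the gene and the rest in the middle part.

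Other genes of the AP-1 network were taken from a wider list. Of 13 further partner and basic leucine zipper genes, 9 had shared sites, with a median of 5 sites, beside 4 over all genes, and a median level of 46.3%, beside 46.6%. BACH1, a repressor that pairs with small MAF proteins, had 14 sites at 57.8% ± 1.4. MAFK, one of those MAF proteins, had 10 at 51.1% ± 1.6, and NFE2L2, the activator of the oxidative stress response, had 8 at 46.3% ± 1.6. FOSB, BATF, BATF2 and ATF7 were not listed under these names; a readthrough transcript named ATF7-NPFF had 3 shared sites at 59.7%. Of 42 other immediate early genes, 28 had shared sites and 5 were listed in a single replicate. The median of the 28 was 7.5 sites at 53.0%; 19 had more sites than the median gene and 6 fewer, and 23 had a higher mean level than the median gene. TRIB1, a pseudokinase that directs protein degradation, had 33 sites at 61.8% ± 0.75, as many as JUN. MYC, the growth regulator, had 19 at 50.5% ± 0.54 and MCL1, an inhibitor of apoptosis, 18 at 47.7% ± 0.84. EGR2, EGR3, EGR4, DUSP6, KLF2, CCN2, SGK1, PLK2 and PLK3 were not listed in either replicate, so EGR1, with its single site, was the only EGR gene in these data.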

How the data were processed

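Per the labels, the mRNA was purified with oligo(dT) and GLORI-treated, and library construction followed a modified form of eCLIP. Tools listed in the submitters' processing notes, without roles, are STAR, Bowtie, SAMtools and Trim Galore 0.6.6, and the build is GRCh38. The sources used here do not give the site caller, the gene annotation or any use of molecular identifiers. Per the file headers, the authors deposited for each site the read counts of A and of A plus G, their ratio as a fraction, a p-value before and after adjustment and, for its gene, a conversion fraction and a coverage signal. The fraction equalled the ratio of the counts within 5e-06. How the gene coverage was computed is not stated; it served only to find genes of like depth.

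A site was shared when chromosome, position and strand matched. Levels are means of both replicates. Fisher's exact test was run on the counts of all shared sites (scipy 1.17.1) and checked on simulated data. The members and gene lists were chosen with earlier results of these data known, so gene lists are described by counts and medians, with no test. All members were named, each with its highest, lowest and most covered shared site, shared sites at most 12 nt apart, the ends of its range and the most covered site listed in 1 replicate. Other sites named were chosen after their values were seen. Gene spans are those of RefSeq, GRCh38.p14; all 10 members were found there and in its promoter sequences. Distances are along the gene; coding and untranslated parts were not analysed here. The alternatives tried were other minimums of coverage, level and adjusted p, single replicates, other weightings of sites and a correction for conversion.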

Additional observations from a re-analysis of the deposited data

Results flagged for a closer look

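In IER2, position 13154165 was listed in replicate 2 only, with 96 A reads of 100, a level of 96.0% (95% Wilson interval 90.2 to 98.4). It drew attention as a strong signal in data that the comparison of shared sites does not use. In replicate 1 the shared site 20 nt before it had 114 reads and the one 78 nt after it 73. Over the series, replicate 1 failed to list 5 of the 4879 replicate 2 sites with at least 80% and 50 reads (0.102%), and 1 of the 1874 with at least 100 reads, which is this one. These thresholds were chosen after the site was seen, and the cause was not tested.

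Inside the annotated span of IER2 and on its strand, 8 sites that the files assign to no named gene were listed in both replicates, and 1 more in replicate 1. They stood between 230 and 2467 nt from the start, in the stretch where IER2 itself had no shared site. The first of them, position 13150640, had 98.2% of 56 reads and 94.8% of 58, and the other 7 had means of 18.0% to 52.2%. Whether these reads came from IER2 transcripts was not tested.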

How the results depend on the processing

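The members kept 92 to 155 sites under the other minimums of coverage, level and adjusted p and with sites of either replicate, and 141 or 142 with a single replicate, against 128. No test called a site between replicates under any alternative. The median of the gene means, 53.3%, became 45.3% at 30 or more reads in both replicates (8 genes left) and 58.3% with levels of at least 20%; without replicate 2 it was 53.3% and without replicate 1 47.2%. Other weightings, 50 or more reads and the correction for conversion moved it by less than the 95% counting interval of the median gene. At 30 reads EGR1 lost its only site, and FOSL2 fell from 53.3% to 17.7%, from 1 remaining site. Of 68 further values of single genes, 42 stayed within their 95% counting interval and 26 did not. The median position of the shared sites, at 62.5% of the gene's length from the start, was 72.0% without JUN. The correction for conversion and the count without JUN were added after the data were seen. Without replicate 2, JUNB had 60.6%, down from 69.2%, because sites listed in replicate 1 alone then enter its mean. No paired analysis was possible because the labels give a single group. Depth limits EGR1, FOS and FOSL2, where the median coverage of listed sites puts the lowest level that can be listed above 10%.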
